A study of Mus musculus with 10 samples.

Results

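Genes used as markers of the mesothelium, the single layer of flat cells that covers the testis, were examined in testes of mice with and without the RNA helicase MOV10. The 9 genes are Upk3b, Upk1b, Msln, Lrrn4, Krt19, Krt7, Muc16, Bnc1 and Gpm6a, out of 55421 genes in the count files. They were selected by name with the levels of these same 6 RNA-seq libraries already known, so the difference between genotypes below is a description and carries no p-value for any of the 9. RNA was taken from pairs of testes at postnatal day 21 (P21), 3 wild type and 3 Mov10-/-, each pair giving 1 library made from poly(A) RNA with a stranded kit. The Mov10-/- mice are global knockouts. A floxed block of exons that encodes the first helicase domain was removed by Actb-Cre, a Cre driven by the strong and ubiquitous beta-actin promoter, and the mice are on a mixed background of the strains 129, C57BL/6 and FVB. The deletion is thus not limited to the mesothelium, and the labels name no litters. A second experiment in the series, CLIP-seq, sequenced the RNA bound to MOV10 in 4 libraries of wild type P21 testes from which the capsule had been stripped. Whether the capsule, which carries the mesothelium, was left on the testes used for RNA-seq is not given in the sources used here.

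The mesothelium is an epithelium of mesodermal origin that lines the body cavities and their organs, secretes a lubricating film and keeps keratins, as epithelia do, together with features of connective tissue cells. On the testis it forms the outermost sheet of the tunica, above the fibrous tunica albuginea, and continues onto the epididymis. It is thin, so its RNA is diluted in whole testis by that of germ cells. Several of its markers are shared with other epithelia: uroplakins with the bladder, keratins 7 and 19 with ducts.

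RefSeq promoters (GRCm38.p6) were found for 6 of the 9 members, with 7 start sites, since Gpm6a has 2. Upk1b, Msln and Krt19 were not matched. The 250 bases before the start are printed for genes that were higher in Mov10-/- libraries (Upk3b, Krt7, Gpm6a), for the abundant member Lrrn4, and for Muc16, the 1 member that was lower, so that the sequences ahead of genes with opposite patterns can be read side by side. Capitals mark CATTCC or its reverse complement GGAATG, the core letters of the site read by TEAD factors.

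Upk3b: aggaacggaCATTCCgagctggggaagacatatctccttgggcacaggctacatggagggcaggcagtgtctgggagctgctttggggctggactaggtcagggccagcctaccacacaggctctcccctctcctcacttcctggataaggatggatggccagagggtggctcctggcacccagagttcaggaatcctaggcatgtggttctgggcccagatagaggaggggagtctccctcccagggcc

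Krt7: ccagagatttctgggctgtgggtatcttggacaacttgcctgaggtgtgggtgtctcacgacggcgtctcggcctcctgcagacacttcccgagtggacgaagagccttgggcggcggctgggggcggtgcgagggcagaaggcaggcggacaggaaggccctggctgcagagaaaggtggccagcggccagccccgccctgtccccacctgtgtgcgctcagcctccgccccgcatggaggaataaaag

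Gpm6a: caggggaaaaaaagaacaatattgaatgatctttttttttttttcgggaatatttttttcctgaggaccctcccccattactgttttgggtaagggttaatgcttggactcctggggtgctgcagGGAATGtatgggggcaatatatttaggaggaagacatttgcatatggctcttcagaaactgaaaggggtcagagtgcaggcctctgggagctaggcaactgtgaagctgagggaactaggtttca

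Lrrn4: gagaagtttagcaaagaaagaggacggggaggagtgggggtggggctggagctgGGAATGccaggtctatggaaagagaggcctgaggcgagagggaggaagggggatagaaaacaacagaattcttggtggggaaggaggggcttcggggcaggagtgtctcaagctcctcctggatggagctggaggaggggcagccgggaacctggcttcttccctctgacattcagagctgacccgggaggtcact

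Muc16: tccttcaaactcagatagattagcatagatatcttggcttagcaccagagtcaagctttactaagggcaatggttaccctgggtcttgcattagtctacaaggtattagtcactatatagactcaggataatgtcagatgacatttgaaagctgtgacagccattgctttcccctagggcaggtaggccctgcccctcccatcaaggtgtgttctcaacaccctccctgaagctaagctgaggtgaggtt

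These windows are chr5:136038246-136038495 (plus strand) for Upk3b, chr15:101412153-101412402 (plus strand) for Krt7, chr8:54779184-54779433 (plus strand) for the upstream start of Gpm6a, chr2:132880863-132881112 (minus strand) for Lrrn4 and chr9:18674604-18674853 (minus strand) for Muc16. CATTCC on either strand was present in 3 of the 7 windows, at 241 bases before the start of Upk3b, 125 before the upstream start of Gpm6a and 196 before that of Lrrn4. It was present in 12.6% of all 32851 RefSeq promoter windows of this length. The window of the second start of Gpm6a, the one next to the annotated gene, did not hold these letters, and nor did those of Krt7, Muc16 and Bnc1. GGGCGG or CCGCCC, the letters of a GC box, stood 4 times before Krt7 and 5 times before Bnc1 and in no other window of the members, against 32.7% of all windows. TATAAA or TTTATA occurred once, before the second start of Gpm6a, against 12.4% of all windows. The share of G and C was 46.4% before Muc16, 60.8% before Upk3b and 83.6% before Bnc1, with a median of 52.4% over all windows. The motifs were chosen after the sequences had been read, and a match of letters does not show that a factor binds.

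Between 5083407 and 9230540 reads per RNA-seq library fell on genes, and a single read was worth 0.108 to 0.197 RPM (reads scaled to a fixed library total). Levels are given as CPM, counts scaled to the same fixed total and adjusted between libraries by the trimmed mean of M values (TMM). Mov10 itself, counted over all its exons, was at 114, 96.8 and 120 CPM in wild type and at 29.2, 26.7 and 26.8 CPM in Mov10-/- testes, with a log2 fold change of -1.999 ± 0.12 (SE) and an adjusted p of 0.00552 (edgeR quasi-likelihood test, Benjamini-Hochberg). Of the 20240 genes above 1 RPM in at least 3 libraries, Mov10 was the 1 gene with an adjusted p under 0.05 and a fold change over 2, which is 0.00494% of the genes tested. At an unadjusted p under 0.05, 1129 genes (5.58%) were higher and 2414 (11.9%) lower in Mov10-/- testes. DESeq2 called 51 genes higher (0.252%) and 988 lower (4.88%). The p-values measure the spread between these 3 and 3 testis pairs.

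All 9 members were above the minimum for testing, but not equally in both genotypes: 3 of them (Lrrn4, Muc16 and Bnc1) were above 1 RPM in all 3 wild type libraries, the other 6 in 2, and all 9 were in the 3 Mov10-/- libraries. The counts over members that follow are therefore descriptions. Every Mov10-/- library was above every wild type library for 4 members (Upk3b, Msln, Krt7 and Gpm6a), as it was for 11.9% of all genes tested. All Mov10-/- libraries were under all wild type ones for 1 member (Muc16), as they were for 14.1% of all genes tested. The genotypes overlapped for the other 4 (Upk1b, Lrrn4, Krt19 and Bnc1). For Upk3b, Msln, Krt7, Gpm6a and Muc16 the gaps were small beside counting error. The 95% intervals for counting error alone (exact Poisson) of the nearest libraries of the genotypes overlapped for each. The fitted fold change was over 2 and higher in Mov10-/- for 5 members (Upk3b, Krt19, Krt7, Msln and Gpm6a), against 1.81% of all genes tested. In RNA from the mixed cells of a testis, fewer cells of a type and less RNA per cell cannot be told apart. The median log2 fold change of the 9 was 1.52, and that of all genes tested was 0.03.

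**Figure D1:**
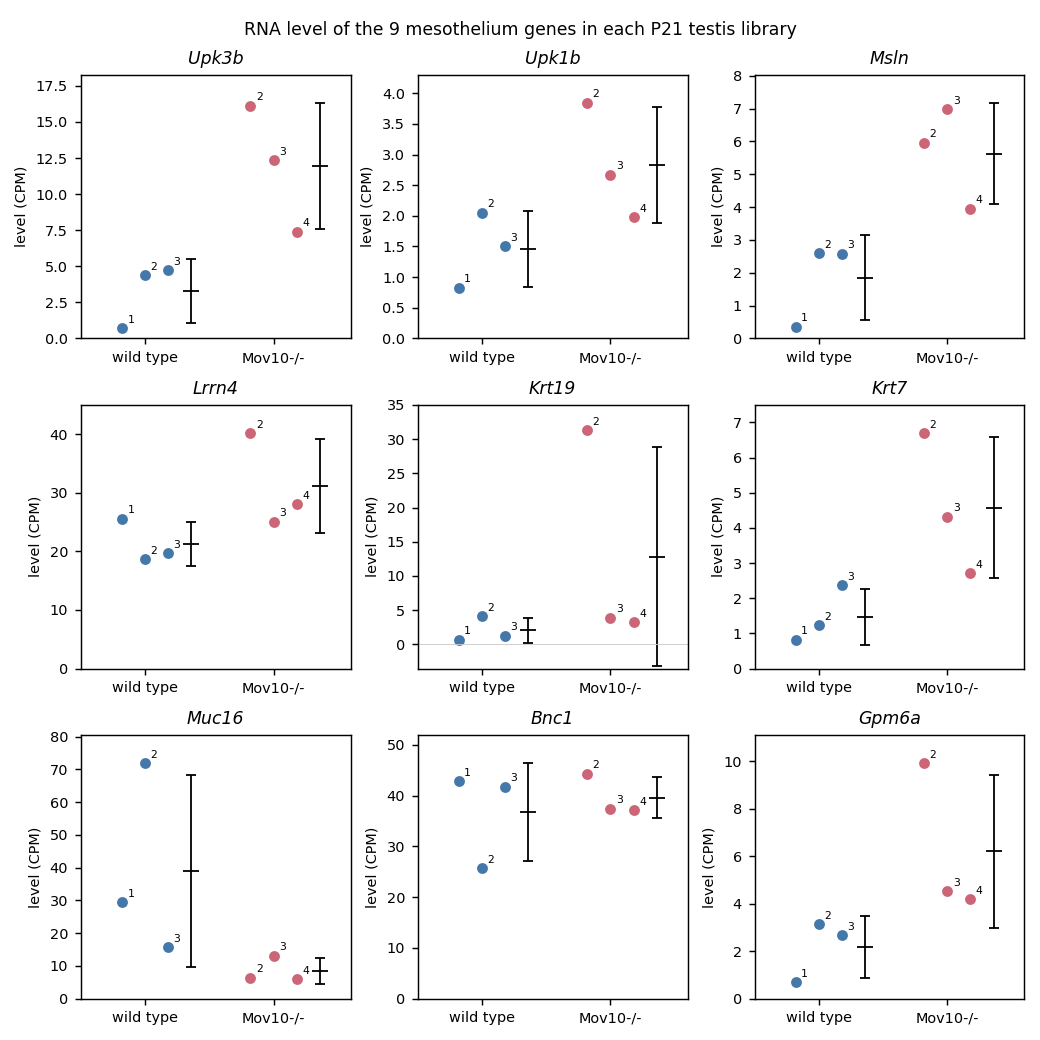
Level (CPM, linear axes that start at 0 or, for Krt19, below the lower error bar) of each member in the 3 wild type (blue) and 3 Mov10-/- (red) P21 testis libraries, with the replicate number beside each point and the mean ± SD beside each group. Upk3b, Msln, Krt7 and Gpm6a separate upward in Mov10-/-, Muc16 separates downward, and the high mean of Krt19 rests on Mov10-/- replicate 2 (31.3 CPM).

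Upk3b encodes uroplakin 3b, a membrane glycoprotein of the uroplakin family that is used as a defining marker of mesothelium. The gene lies at chr5:136038496-136046487 (plus strand, GRCm38), with 6 exons and 3530 exon bases. Its level was 0.707, 4.38 and 4.73 CPM in wild type replicates 1, 2 and 3, and 16.1, 12.3 and 7.41 CPM in Mov10-/- replicates 2, 3 and 4. The lowest Mov10-/- library stood above the highest wild type one, and wild type replicate 1 stood well below both of its companions, with 6 reads. The log2 fold change was 1.87 ± 0.63 (SE), between means of 3.27 ± 2.23 and 11.96 ± 4.37 CPM (SD, n = 3 each).

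Upk1b, on chromosome 16 (38773184 to 38800328, minus strand), encodes a tetraspanin that pairs with uroplakin 3 proteins in the plaques of urothelium. It was measured at 0.824, 2.05 and 1.504 CPM in wild type and 3.85, 2.67 and 1.97 CPM in Mov10-/- libraries. The groups overlapped by a hair, since wild type replicate 2 stood just above Mov10-/- replicate 4, and with scaling by library size alone they separated. Its log2 fold change was 0.96 ± 0.45 (SE) from 36 reads in wild type and 60 in Mov10-/-.

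Msln, on chromosome 17 (25748613 to 25754378, minus strand), encodes mesothelin, a lipid-anchored surface protein that binds the mucin MUC16. Its level was 0.353, 2.60 and 2.58 CPM in wild type and 5.96, 6.99 and 3.95 CPM in Mov10-/- libraries. The groups did not overlap, and wild type replicate 1 was again the lowest. That library held 3 reads of Msln, which gives an exact Poisson interval of 0.0729 to 1.03 CPM (95%, counting error only), below the values of the other wild type libraries. The log2 fold change of Msln was 1.597 ± 0.63 (SE).

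Krt7 and Krt19 encode keratins of simple epithelia, a type II and a type I chain, which form filaments with a partner of the opposite type. Krt7, on chromosome 15 (101411043 to 101430313, plus strand), was at 0.824, 1.23 and 2.36 CPM in wild type and 6.70, 4.32 and 2.72 CPM in Mov10-/- libraries. Its groups stood apart by little, Mov10-/- replicate 4 being next above wild type replicate 3. The log2 fold change of Krt7 was 1.62 ± 0.51 (SE). Krt7 shares 77 exon bases with Gm671, an antisense gene, and since the strand setting of the counting is not given, reads on these bases cannot be assigned to either.

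Krt19, on chromosome 11 (100140810 to 100148665, minus strand), was at 0.707, 4.11 and 1.29 CPM in wild type and 31.3, 3.91 and 3.21 CPM in Mov10-/- libraries. Mov10-/- replicate 2 alone stood far above, with 252 reads, and both other Mov10-/- libraries lay below wild type replicate 2. The log2 fold change of 2.68 ± 1.02 (SE) was 0.82 without Mov10-/- replicate 2 and 3.68 without wild type replicate 2. Chi-square over its degrees of freedom, which is near 1 where libraries differ by counting error alone, was 136 for Krt19 within Mov10-/- and 13.4 within wild type. In Mov10-/- replicate 2 the epididymal secretory gene Crisp1 was at 70.1 CPM, against 0.411 and 0.494 CPM in Mov10-/- replicates 3 and 4, and at 0.118, 12.7 and 24.6 CPM in wild type replicates 1, 2 and 3. Rnase10, another gene of the epididymis, was at 0.124 CPM in Mov10-/- replicate 2 and did not follow Crisp1. Both genes were chosen after their values were seen. The part of such duct RNA in the level of Krt19 was not tested.

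Gpm6a, on chromosome 8 (54954843 to 55060871, plus strand), encodes a membrane proteolipid best known from neurons. Its level was 0.707, 3.15 and 2.69 CPM in wild type and 9.93, 4.52 and 4.20 CPM in Mov10-/- libraries. No library of one genotype reached into the other, and the extremes were again wild type replicate 1 and Mov10-/- replicate 2. Its log2 fold change came to 1.52 ± 0.59 (SE).

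Lrrn4, on chromosome 2 (132868305 to 132880891, minus strand), encodes a transmembrane protein with leucine-rich repeats. It was at 25.6, 18.6 and 19.7 CPM in wild type and 40.2, 25.1 and 28.0 CPM in Mov10-/- libraries. Here wild type replicate 1 was the highest of its group, not the lowest, and it overlapped Mov10-/- replicate 3. This gave a log2 fold change of 0.55 ± 0.24 (SE).

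Muc16, on chromosome 9 (18495455 to 18674530, minus strand, 86 exons and 26350 exon bases), encodes the large transmembrane mucin known as the antigen CA125, the ligand of mesothelin. Its level was 29.4, 71.9 and 15.7 CPM in wild type and 6.45, 13.2 and 6.05 CPM in Mov10-/- libraries. All Mov10-/- libraries were below all wild type libraries, with a small gap between Mov10-/- replicate 3 and wild type replicate 3. The log2 fold change was -2.21 ± 0.58 (SE), and -1.42 without wild type replicate 2, the library with the most Muc16. So the RNAs of this pair, Msln and Muc16, lay on opposite sides. The proteins were not measured, and the libraries do not show whether the same cells held both RNAs.

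Bnc1, on chromosome 7 (81966672 to 81992292, minus strand), encodes basonuclin 1, a zinc finger protein of basal keratinocytes and germ cells. It was at 42.9, 25.7 and 41.8 CPM in wild type and 44.3, 37.4 and 37.2 CPM in Mov10-/- libraries. The groups overlapped, with wild type replicate 2 alone below the rest, and the log2 fold change was 0.11 ± 0.22 (SE). Bnc1 shares 98 exon bases with a pseudogene on the opposite strand, 4833418N17Rik.

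**Figure D2:**
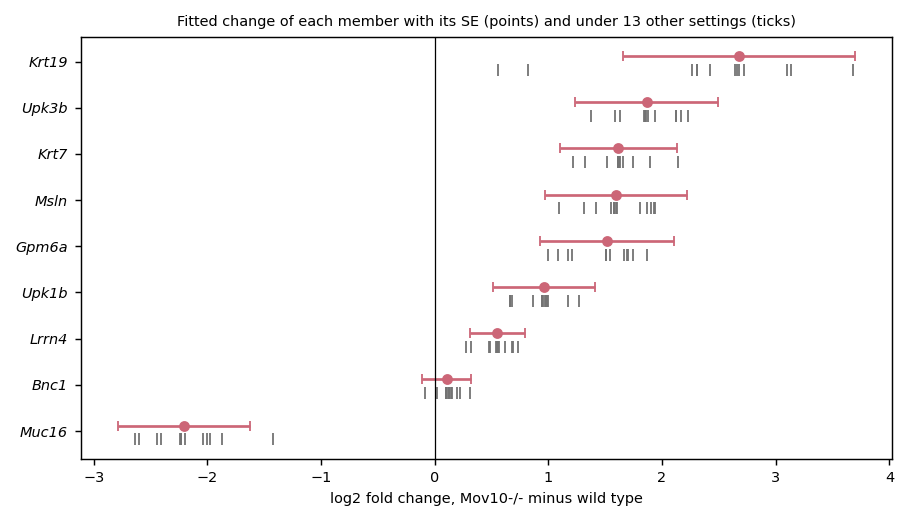
Fitted log2 fold change (Mov10-/- minus wild type) of each member with its SE (red points and bars) and the values under 13 other settings of normalization, filter, test or libraries left out (grey ticks). Krt19 spreads from 0.55 to 3.68, Muc16 stays below 0 in each setting, and Bnc1 lies at 0.11 next to 0.

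The 9 members fell into a scarce and an abundant group. Upk3b, Upk1b, Msln, Krt19, Krt7 and Gpm6a were under 10 CPM in every wild type library. Their summed level was 4.12, 17.5 and 15.1 CPM in wild type replicates 1, 2 and 3 and 73.8, 34.7 and 23.5 CPM in Mov10-/- replicates 2, 3 and 4, so that the range within each genotype was wide beside the gap between them. The means were 12.3 ± 7.15 and 44.0 ± 26.4 CPM (SD, n = 3 each). Lrrn4, Muc16 and Bnc1 together gave 97.1 ± 19.6 CPM in wild type and 79.3 ± 10.3 CPM in Mov10-/- testes. Because 3 abundant genes dominate the total, the sum over all 9 overlapped between genotypes, at 109 ± 21.7 and 123 ± 36.8 CPM.

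Per kilobase of exon, the order of mean levels in wild type was Bnc1 (7.92 ± 2.06 CPM per kb), Lrrn4 (5.73 ± 1.01), Muc16 (1.48 ± 1.11), Krt19 (1.097 ± 0.981), Upk3b (0.927 ± 0.631), Upk1b (0.699 ± 0.295), Gpm6a (0.678 ± 0.404), Msln (0.602 ± 0.421) and Krt7 (0.209 ± 0.113). Lrrn4 and Muc16 were the only neighbours in this order whose ranges over 3 libraries did not overlap. In Mov10-/- testes the order began with Bnc1 (8.53 ± 0.871 CPM per kb) and Lrrn4 (8.37 ± 2.16), which again overlapped. Upk3b stood at 3.39 ± 1.24 CPM per kb, Msln at 1.84 ± 0.504, and Muc16 came last at 0.325 ± 0.152. Every pair of neighbours overlapped there. Both orders depend on the merged exon bases of all annotated transcripts of a gene, which are 7049 for Krt7 and 1855 for Krt19. Before this division the wild type mean of Krt7 was 1.47 CPM, next to 1.46 CPM for Upk1b.

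Across the 6 libraries, 6 of the 9 members were lowest in wild type replicate 1 and 7 were highest in Mov10-/- replicate 2. The 6 scarce members followed each other from library to library. The Pearson r of their log2 levels (CPM + 0.5) was 0.70 to 0.99 over the 15 pairs and 6 libraries, and 0.43 to 0.97 after the mean of each genotype was taken away. All these values share the same libraries and their depth. Of the 20239 other genes tested, the one most like Upk3b was Msln (r = 0.99), followed by the noncoding RNA 4732496C06Rik. Msln in turn had 4732496C06Rik first and Upk3b second (r = 0.99 for both). Klc3 and Gpm6a were most like Upk1b (r = 0.98 for both), while Bend3 and Ctrl were most like Gpm6a (r = 0.98 for both). For Krt7 these were S100a10 (r = 0.999) and Rasip1 (r = 0.99), and for Krt19 the pseudogene Stxbp3-ps (r = 0.98) and Mgea5 (r = 0.97). Slc38a1 and Vsir followed Lrrn4 (r = 0.997 and 0.989). With 6 libraries and 20239 genes to rank, r this high can arise between unrelated genes, for these members and those below. The values also include the difference between genotypes. 4732496C06Rik itself varied little, from 2.47 to 3.10 CPM.

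Muc16 and Bnc1 ran with other genes, and so in part did Lrrn4. Of the marker lists, Lrrn4 had its highest median r with that of macrophages, 0.87, against 0.73 with a list of other mesothelium genes. After the mean of each genotype was taken away these were 0.86 and 0.58. Its r with the 6 scarce members then ran from -0.52 (Msln) to 0.45 (Krt19). Ubl4b and Fam166a were most like Muc16 (r = 0.999 for both). Ubl4b was at 10.95, 43.7 and 3.76 CPM in wild type and at 0.620, 2.88 and 0.370 CPM in Mov10-/- libraries, the same order of libraries within wild type as Muc16. Gpr161 and A430033K04Rik were most like Bnc1 (r = 0.998 and 0.995). With the 11 tested genes of a spermatid list, among them the protamine gene Prm2, the median r was 0.97 for Muc16 and from -0.78 to -0.48 for the other 8 members. After the genotype means were taken away it was 0.95 for Muc16 and from -0.77 (Bnc1) to 0.22 (Msln) for the other 8, closer to 0 for each of them but Bnc1. With 9 spermatogonia genes such as Zbtb16, Gfra1 and Kit, the median r was 0.78 for Bnc1, 0.59 for Krt7 and -0.78 for Muc16. The median r of Bnc1 was 0.81 with the urothelium list and 0.77 with that of Sertoli cells. The median r of Muc16 with all genes tested was -0.12, and that of Bnc1 was 0.07. With Upk3b, the r of Muc16 was -0.60 over the 6 libraries and 0.10 after the mean of each genotype was taken away, and with Msln these were -0.54 and 0.21.

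**Figure D3:**
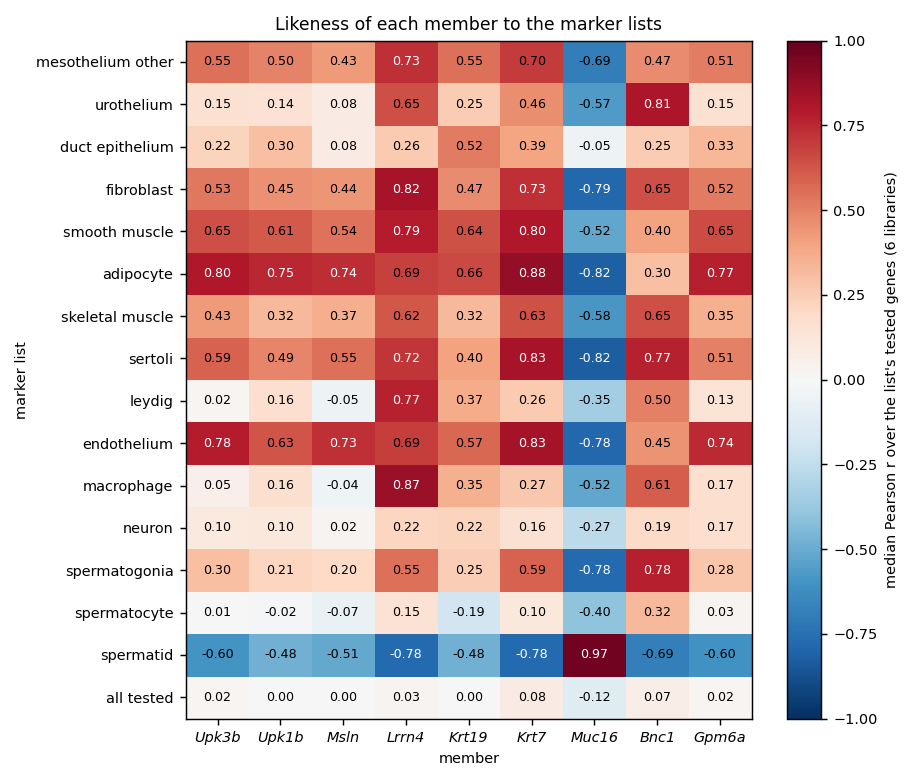
Median Pearson r (colour and printed value) between the log2 level of each member (columns) and the tested genes of each marker list (rows) over the 6 libraries, with all 20240 tested genes in the bottom row. Muc16 stands apart from the other 8 members, at 0.97 with the spermatid list, and of the lists drawn here, which leave out the 9 members themselves, each scarce member has its highest median with the adipocyte list. For Msln the endothelium list is close behind (0.74 against 0.73), and these r include the difference between genotypes.

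Spermatid genes followed the same libraries as Muc16. Their summed level over 12 genes was 354, 819 and 232 CPM in wild type and 104, 256 and 140 CPM in Mov10-/- libraries, and wild type replicate 2 was the highest for both. The median log2 fold change of its 11 tested genes was -2.22, all 11 were below 0, and for 4 all Mov10-/- libraries were lower than all wild type ones. The quasi-likelihood test called 0 of them and gave 9 an unadjusted p under 0.05, with a lowest adjusted p of 0.150, while DESeq2 called 7 lower. Prm1, which was too low for the test, was at 4.12, 25.7 and 0.859 CPM in wild type and 0.124, 0.822 and 0.617 CPM in Mov10-/- libraries. Acr, the acrosin gene and the most abundant of the list, had a log2 fold change of -0.21 ± 0.21 (adjusted p = 0.629, edgeR). Prm2 was at 11.5, 58.9 and 1.61 CPM in wild type and 0.496, 1.85 and 0.987 CPM in Mov10-/- libraries, and Tnp2 was at 0 in Mov10-/- replicate 2. The part of spermatid RNA in the level of Muc16 was not tested.

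The relatives of the members by family were measured beside them, 13 genes of which 11 were tested. The edgeR quasi-likelihood test called 0 of the 11 (adjusted p from 0.150 to 0.935) and gave 1, Muc4, an unadjusted p under 0.05. DESeq2 and edgeR's exact and likelihood ratio tests each called 1, again Muc4, lower, and limma voom called 0. Muc4, a transmembrane mucin like Muc16, was at 23.5 ± 24.5 CPM in wild type and 2.11 ± 1.20 CPM in Mov10-/- testes. Muc1, the third of these mucins, was the most abundant per length, at 20.5 ± 8.53 and 15.6 ± 4.31 CPM per kb.

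Among uroplakins, Upk3bl, the neighbour of Upk3b, was at 11.6 ± 3.51 CPM per kb in wild type and 9.43 ± 3.63 in Mov10-/- testes, above the mean of Upk3b in both genotypes. The partners that build bladder plaques were scarce, as Upk3b and Upk1b were. Upk1a was at 1.00 ± 0.429 and 1.32 ± 0.460 CPM per kb, Upk2 at 2.09 ± 1.05 and 1.104 ± 0.177, and Upk3a at 0.427 ± 0.386 and 0.390 ± 0.171. In wild type the means of Upk1a and Upk2 were above those of Upk3b (0.927 ± 0.631) and Upk1b (0.699 ± 0.295). In Mov10-/- testes the means of Upk3b (3.39 ± 1.24) and Upk1b (1.36 ± 0.453) were above theirs. Upk2 was lower in each Mov10-/- library than in any wild type one, the opposite side to Upk3b (log2 fold change -0.91 ± 0.46, adjusted p = 0.352 in the edgeR quasi-likelihood test). Keratin 8 pairs with keratins 18 and 19. Krt8 was at 8.14 ± 1.48 CPM per kb in wild type and 7.72 ± 4.13 in Mov10-/- testes, and Krt18 at 1.66 ± 1.05 and 5.004 ± 6.96. Krt18, like Krt19, owed its Mov10-/- mean to replicate 2, with 18.7 CPM against 1.85 and 0.987 CPM in replicates 3 and 4.

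Bnc2, the other basonuclin, was at 4.43 ± 0.493 CPM per kb in wild type and 4.91 ± 0.492 in Mov10-/- testes, below Bnc1 in both. Gpm6b, the closest relative of Gpm6a, was far above it, at 18.3 ± 4.21 CPM per kb in wild type and 20.9 ± 3.13 in Mov10-/- testes. Lrrn1 was at 1.35 ± 0.604 and 2.33 ± 1.05 CPM per kb, Lrrn2 at 1.59 ± 0.270 and 1.96 ± 0.529 and Lrrn3 at 0.182 ± 0.130 and 0.195 ± 0.069, all below Lrrn4.

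A list of 20 other genes used as mesothelium markers was read in the same fit. The edgeR quasi-likelihood test called 0 of the 19 tested, and 6 were higher and 0 lower at an unadjusted p under 0.05. DESeq2 and edgeR's exact and likelihood ratio tests each called 2 higher, C3 and Slpi, and limma voom called 0. Every Mov10-/- library was above every wild type library for 9 of the 19, and the reverse held for 0, against 11.9% and 14.1% of all genes. The median log2 fold change was 0.42. The summed level of the 20 was 571, 501 and 541 CPM in wild type and 792, 665 and 619 CPM in Mov10-/- libraries, which did not overlap.

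**Figure D4:**
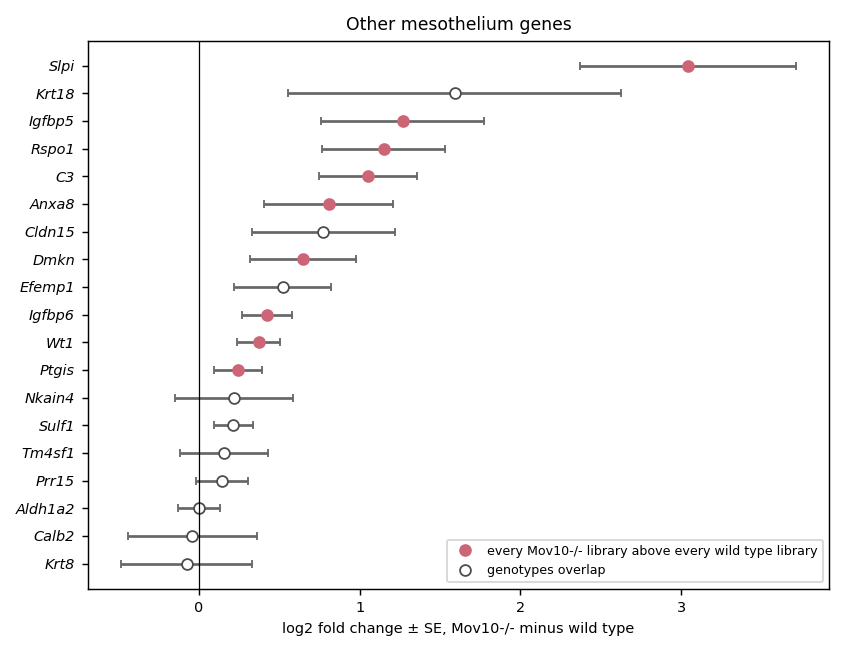
Log2 fold change ± SE (Mov10-/- minus wild type) of the 19 tested genes of the other mesothelium list, filled where every Mov10-/- library was above every wild type library (9 genes). Slpi lies farthest to the right at 3.04 and Krt8 farthest to the left at -0.08.

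C3, the central complement protein, was at 49.3, 24.1 and 27.0 CPM in wild type and 90.4, 64.1 and 53.9 CPM in Mov10-/- libraries, with no overlap (log2 fold change 1.05 ± 0.31, edgeR adjusted p = 0.165). Slpi, a secreted inhibitor of proteases named here because DESeq2 called it, was at 0.236, 1.78 and 0.859 CPM in wild type and 11.04, 8.63 and 3.95 CPM in Mov10-/- libraries. Its log2 fold change was 3.04 ± 0.67 (SE) with an edgeR adjusted p of 0.150, and it was lowest in wild type replicate 1 and highest in Mov10-/- replicate 2, as Upk3b was. The other abundant genes of the list had smaller values, and none passed the test. Wt1, a zinc finger protein of mesothelium and of Sertoli cells, had a log2 fold change of 0.37 ± 0.13 (adjusted p = 0.217), and Igfbp6 one of 0.42 ± 0.16 (adjusted p = 0.225). Aldh1a2, which makes retinoic acid, was at -0.0021 ± 0.13 (adjusted p = 0.995), and Sulf1 at 0.21 ± 0.12 (adjusted p = 0.406). Pdpn, a further standard marker, was listed at 0 reads in all 6 libraries. Rhox8 and Rhox5, genes of Sertoli cells, which every testis holds, were listed at 0 in 6 and 5 libraries, so a 0 in these files does not show that a gene's RNA was absent.

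Lists for 14 other kinds of cell hold 124 genes, of which 104 were tested. The edgeR quasi-likelihood test called 0 of them, with 18 higher and 11 lower at an unadjusted p under 0.05, DESeq2 and the exact and likelihood ratio tests called 4 higher and 8 lower, and limma voom called 0. The 4 were the fat cell genes Cidec, Fabp4, Cfd and Car3. The 8 were Map2 of the neuron list and, by DESeq2, 7 spermatid genes. Map2, which encodes a protein of microtubules, was at 57.9, 106 and 44.7 CPM in wild type and 35.5, 31.0 and 32.6 CPM in Mov10-/- libraries, with a log2 fold change of -1.07 ± 0.30 (SE) and an edgeR quasi-likelihood adjusted p of 0.159. The adipocyte list had a summed level of 47.9, 49.2 and 41.5 CPM in wild type and 126, 97.5 and 90.6 CPM in Mov10-/- libraries, without overlap, and 5 of its 9 genes separated upward. Adipoq and Retn, its first genes, had adjusted p-values of 0.712 and 0.353, and Plin1, its most abundant by the mean over the 6 libraries, 0.514. Car3, a carbonic anhydrase, had the lowest adjusted p of the list, 0.0818, with 5.06, 6.57 and 7.73 CPM in wild type and 39.3, 25.5 and 30.1 CPM in Mov10-/- libraries. The median r with the adipocyte list was 0.80 for Upk3b, 0.74 for Msln and 0.88 for Krt7, above their 0.55, 0.43 and 0.70 with the other mesothelium list. With the endothelium list it was nearly as high, at 0.78, 0.73 and 0.83. After the genotype means were taken away, the adipocyte medians were 0.42, 0.38 and 0.57 and the endothelium medians 0.44, 0.34 and 0.56. Those with the other mesothelium list were then 0.04 for Upk3b, -0.01 for Msln and 0.47 for Krt7. The part of fat or of other tissue beside the testis in the levels of the scarce members was not tested.

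The summed level of 13 genes of the epididymis and other ducts overlapped between genotypes, at 197, 232 and 219 CPM in wild type and 280, 155 and 146 CPM in Mov10-/- libraries. Aqp9, a water and glycerol channel and the most abundant of them, was at 109, 143 and 111 CPM in wild type and 61.9, 85.5 and 88.7 CPM in Mov10-/- libraries. It lay lower in each Mov10-/- library, with a log2 fold change of -0.62 ± 0.17 (SE) and an edgeR adjusted p of 0.156. Pax2, a transcription factor of such ducts, was at 1.18, 2.19 and 4.30 CPM in wild type and 8.56, 1.03 and 0.370 CPM in Mov10-/- libraries. Pax8, its relative, was at 18.9 CPM in Mov10-/- replicate 2 and at 1.44 to 5.05 CPM in the other 5 libraries, and Lcn8 and Lcn9 were at 0 in all 6. Rnase10 went the other way, at 17.4, 22.7 and 7.30 CPM in wild type and 0.124, 8.02 and 0.123 CPM in Mov10-/- libraries. Epcam differed little, at 50.3, 41.9 and 43.4 CPM in wild type and 50.4, 47.9 and 42.6 CPM in Mov10-/- libraries. With both libraries that held the most Crisp1 left out, wild type replicate 3 and Mov10-/- replicate 2, the 4 members that separated upward (Upk3b, Msln, Krt7 and Gpm6a) still did so, Muc16 remained lower, and the median log2 fold change of the 9 was 0.68. This alternative was chosen after the data were seen, and leaving libraries out can hardly make separated groups overlap. Of the skeletal muscle list, the actin gene Acta1 was at 25.9 CPM in Mov10-/- replicate 2 and at 0.353 to 3.56 CPM in the other 5, and Ckm, a creatine kinase, at 5.58 CPM against 0.118 to 0.685 CPM. Myh1, a myosin and the most abundant gene of that list, spread over the libraries from 6.44 to 22.6 CPM, and Myh4 was highest in Mov10-/- replicate 3.

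The bladder list, whose cells share uroplakins and keratins with mesothelium, had 5 of 10 genes tested, a median log2 fold change of 0.32 and overlapping sums (20.8 to 24.9 CPM in wild type, 23.7 to 43.9 CPM in Mov10-/-). Its most abundant gene, Trp63, a transcription factor of basal epithelial cells, was at 12.4, 7.40 and 9.24 CPM in wild type and 13.03, 11.7 and 11.5 CPM in Mov10-/- libraries, which overlapped (log2 fold change 0.32 ± 0.28, edgeR adjusted p = 0.580). Krt13, a keratin of stratified epithelia, was at or next to 0 throughout, at 0 in 5 libraries and 0.123 CPM in Mov10-/- replicate 4. Fibroblast genes, which include those of the tunica albuginea, were at 807 to 1117 CPM in wild type and 1295 to 1557 CPM in Mov10-/- libraries. Of the 12, all tested, 7 were higher at an unadjusted p under 0.05 and the median log2 fold change was 0.43, with the collagen genes Col1a1 at 0.81 ± 0.17 (adjusted p = 0.150) and Col1a2 at 0.49 ± 0.15 (adjusted p = 0.167). Smooth muscle genes had a median of 0.34 over 7 genes, and their sums (456 to 488 CPM in wild type, 496 to 665 CPM in Mov10-/-) did not overlap. The contractile genes Acta2 and Myh11 were at 0.29 ± 0.12 and 0.34 ± 0.16 (adjusted p = 0.273 and 0.305).

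For the remaining lists the median log2 fold change was 0.31 for Sertoli cells, 0.20 for Leydig cells, 0.31 for endothelium, 0.32 for macrophages, 0.62 for skeletal muscle, 0.40 for ducts, 0.01 for neurons, 0.23 for spermatogonia and 0.09 for spermatocytes. The sums of Sertoli, endothelium and skeletal muscle genes stood higher in Mov10-/- libraries without overlap, and those of Leydig cells, macrophages, neurons, spermatogonia and spermatocytes overlapped. None of the genes that follow passed the edgeR quasi-likelihood test (adjusted p from 0.167 to 0.961). For the Sertoli genes Sox9, Amh and Cldn11 the log2 fold change was 0.40, 0.46 and 0.31, and for the steroid-making genes Star and Cyp11a1 and their regulator Nr5a1 it was 0.53, -0.04 and 0.23. Pecam1 and Cdh5 of endothelium had 0.18 and 0.56, Csf1r, Cd68 and Mrc1 of macrophages 0.51, 0.27 and 0.21, and the neuronal tubulin Tubb3 0.33, while Snap25, also of neurons, was under 1 CPM in each library and not tested. Among germ cell genes, Zbtb16, Gfra1 and Kit of spermatogonia had 0.27, -0.13 and 0.02, and Sycp1, Sycp3 and Piwil1 of spermatocytes 0.08, 0.05 and 0.12.

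**Figure D5:**
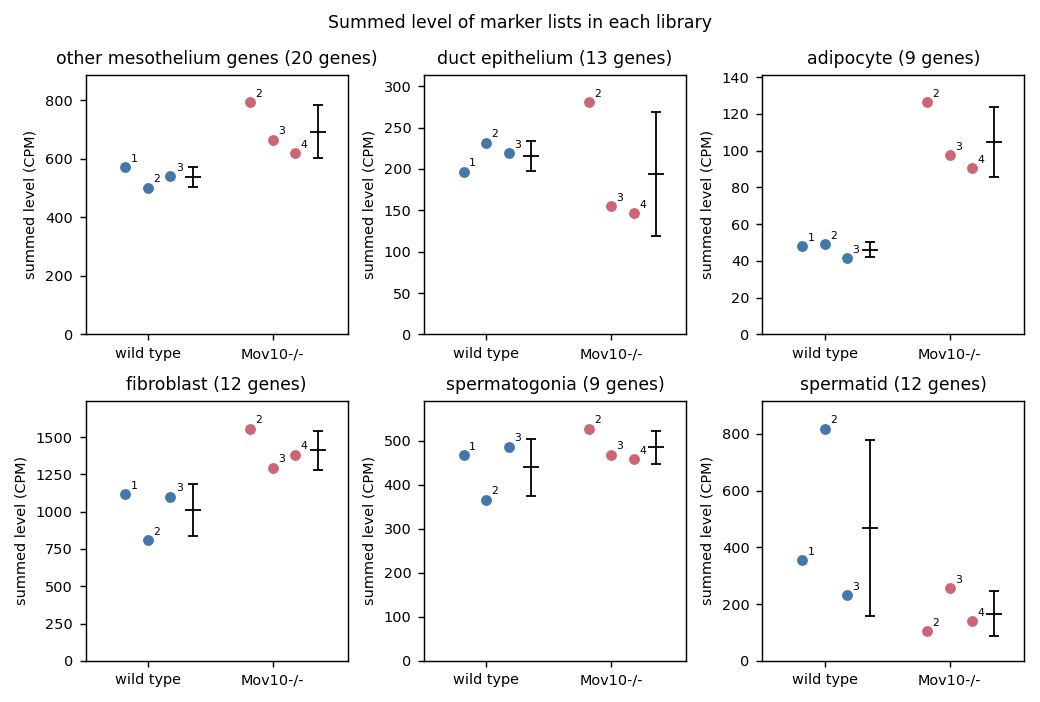
Summed level (CPM, axes from 0) of 6 marker lists in the 3 wild type (blue) and 3 Mov10-/- (red) libraries, with replicate numbers and the mean ± SD beside each group. The other mesothelium, adipocyte and fibroblast sums are higher in all 3 Mov10-/- libraries, the duct, spermatogonia and spermatid sums overlap, and wild type replicate 2 holds the most spermatid RNA (819 CPM).

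CLIP-seq asked which RNAs MOV10 touches in wild type testes. On the members it gave 1 read in all, on Muc16 in replicate 5, and 0 reads on the other 8. The 4 libraries hold 15710 reads on genes in all, 3404 to 4934 each, and 99.5% to 99.6% of their reads are listed as not aligned. The study reports many transcripts bound by MOV10 from its own CLIP-seq analysis, which these counts do not reproduce in depth. The pairs among replicates 1, 2 and 3 differed by less than the sampling noise (a ratio of chi-square to its degrees of freedom between 0.219 and 0.237, over genes with 5 or more reads in both together) and were counted as 1 sample, which leaves 2. Between each of them and replicate 5 the same measure was 1.63 to 1.93. In wild type RNA-seq the members took 0.0107% of the reads on genes. With replicates 1, 2 and 3 averaged into 1 library, CLIP-seq held 8526 reads on genes, of which 0.914 would lie on the members at the same share. A count of 0 over these 8526 reads allows up to 352 RPM (3 reads, counting error only). At this depth binding to the scarce members was not detectable. The capsule had been stripped from the CLIP-seq testes, so the share taken from RNA-seq need not hold for them.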

How the data were processed

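RNA-seq was made from testes of 6 mice at P21 (3 wild type, 3 Mov10-/-) and MOV10 CLIP-seq from wild type testes (4 libraries). The authors deposited raw read counts per Ensembl gene for each library. Per the methods, reads were trimmed, mapped to mm10 with STAR and counted with htseq-count on an Ensembl annotation. The CLIP-seq counting is not described beyond a reference. The submitters' processing notes also name edgeR. Rows that name no gene (not aligned, ambiguous, outside genes) held 52.8% to 71.7% of RNA-seq reads and over 99.9% of CLIP-seq reads and stayed out of all totals. Mov10-/- replicate 3, with 57.2% of reads not aligned, was the shallowest. Reads carry no molecular identifiers, so intervals cover counting error only.

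Gene names and coordinates came from a GENCODE annotation of GRCm38 that matched 55240 of 55421 genes, and exon lengths from its merged exons. edgeR 4.0.16 in R 4.3.3 (TMM, quasi-likelihood, Benjamini-Hochberg) tested the genes that exceeded 1 RPM in 3 or more RNA-seq libraries, and a gene was called at an adjusted p under 0.05 with a fold change over 2. Standard errors are the log2 fold change over the square root of F. Alternatives were DESeq2 1.42.0, limma 3.58.1 (voom), edgeR's exact and likelihood ratio tests, other normalizations, no filter, a replicate block and each library left out. The code was checked on made-up counts with known changes. Likeness used log2(CPM + 0.5), and Python 3.11.15 drew the figures.

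The members and the marker lists were chosen with earlier results of these data known, so no list is independent evidence. Genes named beside the members are the first 2 and the most abundant of each list and any gene called, the 5 most abundant other mesothelium genes, the family relatives (a further relative is not reported here), and the 2 tested genes most like each member. Genes named outside this rule were chosen after their values were seen. These are Slpi, Crisp1, Rnase10, Epcam, Tnp2, Lcn8, Lcn9, Krt13, Myh4, Pdpn, Rhox5 and Rhox8, with Map2 and the fat cell genes that DESeq2 called.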

Additional observations from a re-analysis of the deposited data

How the results depend on the processing

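Normalization by RLE or library size, dropping the filter, limma voom, DESeq2, the replicate block and each library left out kept the sign of 116 of 117 log2 fold changes of the members. The exception was Bnc1, at -0.09 without wild type replicate 2. Of the 117, 115 stayed within 1 SD, and the others were both of Krt19, at 0.82 without Mov10-/- replicate 2 and 0.55 without both libraries with the most Crisp1. The members' median was 0.82 to 1.74 with 1 library left out, and 0.68 without both, an alternative added after seeing the data. Their genotypes did not overlap for 5 to 7 members. Leaving libraries out can hardly make separated groups overlap or turn the sign of their difference, so these counts do not test the separation. The shares of all genes given above are for all 6 libraries. Genes called numbered 1 at first, 6 by library size, 10 without the filter, 1039 by DESeq2, 1101 by the exact test, 1187 by the likelihood ratio test, 2 by limma voom, 0 to 1 with 1 library left out (0 without Mov10-/- replicate 3 or 4) and 0 without both Crisp1 libraries. Other mesothelium genes called were 2 by DESeq2, the exact and the likelihood ratio tests, and marker genes of other cells 12 by the same tests and 1 without the filter. The replicate block called 184 genes in all and 1 other mesothelium gene, C3. Only numbers 2 and 3 occur in both genotypes, so the genotype difference in that fit rests on those libraries alone. Its counts are therefore not comparable with those of the other fits. The labels do not say whether testes of the same number share a litter. Same-numbered testes deviated in opposite ways (correlations of -0.463 for number 2 and -0.344 for number 3), and they were not treated as pairs. CLIP-seq reads on members were 0 without replicate 5. For the results that moved, the cause was not tested. Depth limits the scarce members, with 3 to 44 reads of Msln, Upk3b, Krt7, Upk1b, Gpm6a or Krt19 in a wild type library.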
